A study of Mus musculus with 12 samples.

Results

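Scavenger and mannose receptors are the surface proteins with which macrophages bind and take in modified lipoproteins, sugars of microbes, hemoglobin complexes and dying cells. A set of 10 such genes was followed here, chosen by name but with earlier results of these data known. The genes were Msr1, Mrc1, Cd36, Marco, Cd163, Stab1, Scarb1, Clec7a, Clec4n and Mertk. They are 10 of the 35865 genes to which the deposited transcripts were matched. Of the 10, 4 (Scarb1, Stab1, Cd36 and Clec7a) had at least 10 estimated counts in at least 3 of the 12 libraries and were among the 13906 genes tested, while the other 6 (Msr1, Mrc1, Clec4n, Mertk, Marco and Cd163) had fewer reads.

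The libraries are polyadenylated RNA from the murine macrophage line RAW264.7, lysed 48 h after extracellular vesicles (EVs) were added at 3 µg protein per ml. The EVs came from MS-1, a mouse endothelial line, and had been electroporated with a premiR control, giving the ctrl-EVs, or with a premiR mimic, giving the miR-EVs. The mimics were miR-222-3p, miR-183-5p and miR-142-5p, which the study examined for their action on macrophage polarization, and each group is named by its mimic below. Each of the 4 groups has 3 libraries, which the titles number 1 to 3; what a number stands for is not stated. All groups share the cell line, the serum depleted of EVs and the electroporated EVs, and no library of cells without EVs was analysed here, so the levels below are those of 1 cell line under EV treatment.

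Several of these receptors are read as marks of macrophage polarization. Mrc1, the mannose receptor CD206, Cd163 and Stab1 are known from alternatively activated and tissue-resident macrophages, Marco from macrophages exposed to microbial products, and Cd36 and Msr1 from foam cells that store the lipid of oxidized lipoprotein. Scarb1 encodes SR-BI, which exchanges cholesterol with high density lipoprotein, Clec7a encodes Dectin-1 and Clec4n Dectin-2, lectins for sugars of the fungal cell wall, and Mertk is a receptor tyrosine kinase for the uptake of apoptotic cells.

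The miRNAs delivered set which sites could matter, so their mature sequences are shown first, from RefSeq on build GRCm38.p6, in 5′ to 3′ direction with the seed (nt 2 to 8) in capitals. The gene of miR-142-5p lies on chromosome 11 (87756867 to 87756887, plus strand), that of miR-183-5p on chromosome 6 (30169711 to 30169732, minus strand) and that of miR-222-3p on chromosome X (19146901 to 19146923, minus strand).
miR-142-5p: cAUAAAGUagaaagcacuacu
miR-183-5p: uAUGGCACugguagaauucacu
miR-222-3p: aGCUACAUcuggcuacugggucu
The 3 seeds differ from each other. A 3′ UTR was searched, on its own strand, for the 7-nt complement of each seed, which is ACTTTAT for the first miRNA, GTGCCAT for the next one listed and ATGTAGC for the last.

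In the 3′ UTR of the coding transcript with the highest mean TPM, 1 of the 10 receptor genes held any of these sites. It was Scarb1, with a site for miR-183-5p at bases 107 to 113 of the 779-base 3′ UTR of Scarb1-201, on chromosome 5 (125277753 to 125277759, minus strand). The site is shown in capitals with its neighbouring bases because it was the 1 match found in the leading transcripts of the set.
Scarb1-201, miR-183-5p site: agcccaccaGTGCCATggcctgagc
For comparison, of 12653 tested genes with a searchable 3′ UTR, 8.94% held the miR-183-5p site, 13.8% the miR-142-5p site and 9.28% the miR-222-3p site. Over all coding transcripts annotated for the receptors, 2 of the 4 of Scarb1 (Scarb1-201 and Scarb1-205) held the miR-183-5p site in the 3′ UTR. For Msr1, 1 of the 3 held a miR-142-5p site, namely Msr1-202. It held 56.4% of the few Msr1 counts, against 39.5% for Msr1-201, the leading transcript by TPM, so the choice of transcript decided whether Msr1 held a site. The leading transcript of Cd36, Cd36-205, has no annotated 3′ UTR, and none of its other 5 coding transcripts held a site. A site is a match of letters and says nothing on binding.

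Levels were compared between genes on the TPM scale, which is per transcript length. Scarb1 was by far the most abundant receptor of the set, with a mean of 49.99 TPM and a range of 28.6 to 80.6 over the 12 libraries, rank 3103 of all genes matched. Stab1 followed with a mean of 5.13 TPM (2.46 to 9.54), and Clec7a with 1.07 TPM (0.505 to 1.72). The lowest Scarb1 library lay above the highest Stab1 library, and the lowest Stab1 library above the highest Clec7a library. This order therefore held in every library for TPM summed over all transcripts of a gene. On its coding transcripts alone Stab1 was at 0.471 to 2.87 TPM, which overlapped the range of Clec7a, so these 2 were not ordered there.

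Below Stab1 the order was not resolved. Clec7a, at 0.505 to 1.72 TPM, overlapped Clec4n, at 0.0719 to 1.76 TPM. Mean TPM was 0.543 for Clec4n, 0.424 for Cd36, 0.255 for Msr1, 0.0725 for Mertk, 0.0412 for Mrc1, 0.0153 for Marco and 0.0114 for Cd163, and the ranges of neighbours in this order overlapped. All of these genes were at or near the limit of the sequencing depth, with a median of 12.5 estimated counts per library for Cd36, 6 for Msr1, 5.5 for Clec4n, 4.18 for Mertk, 3 for Mrc1 and 0 for Marco and Cd163. A library held 16294611 to 22974853 estimated counts in all, and 3 counts, the floor used here, equalled 0.131 to 0.184 CPM, for counting error only.

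**Figure D1:**
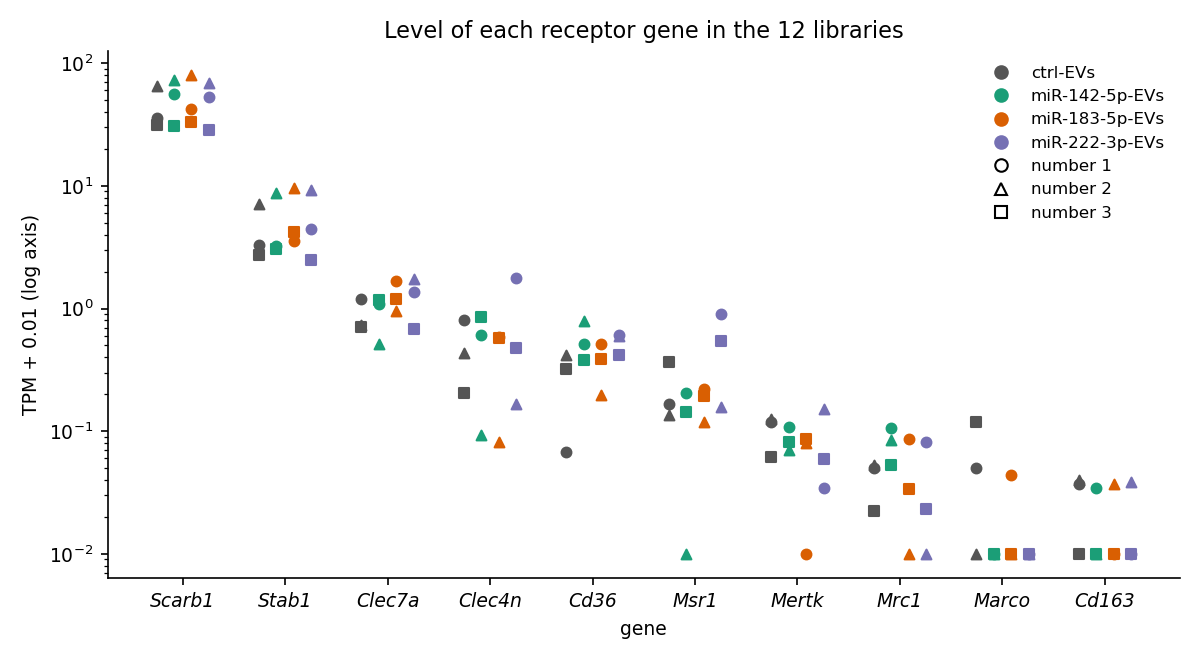
TPM of the 10 receptor genes in each of the 12 libraries, with 0.01 added so that libraries listed at 0 appear on the logarithmic axis; colour gives the EV group and the symbol the title number. Scarb1 (28.6 to 80.6 TPM) and Stab1 (2.46 to 9.54 TPM) lie above all others, and their triangles, the libraries numbered 2, lie above their circles and squares.

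Of the 3 receptors named above for alternative activation, Stab1 was read in every library, whereas Mrc1 and Cd163 were hardly read. Mrc1 had 3, 3 and 1 estimated counts in ctrl-EVs 1, 2 and 3, 8, 5 and 3 with miR-142-5p, 5, 0 and 2 with miR-183-5p and 6, 0 and 1 with miR-222-3p. The groups overlapped, and the highest value was 8 counts. Cd163, the hemoglobin scavenger receptor, was listed at 0 in 7 libraries and at no more than 1.05 counts in the other 5. None of these reads fell on its 2 coding transcripts (coding share 0% in every library), so they were assigned to a transcript with a retained intron.

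Marco, which binds bacteria and particles, was at 0 in 9 of 12 libraries. Its reads were 1 in ctrl-EVs 1, 3 in ctrl-EVs 3 and 1 in miR-183-5p library 1, and no fold can be given between groups at or under 3 counts. Mertk had 6, 6 and 3.10 counts in ctrl-EVs, 6, 3.00 and 4.03 with miR-142-5p, 0, 4.33 and 5.04 with miR-183-5p and 1, 8 and 3 with miR-222-3p, values that overlapped between all groups.

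Msr1, the class A scavenger receptor for modified low density lipoprotein, had 6, 4 and 11 counts in ctrl-EVs, 7, 0 and 3 with miR-142-5p, 9, 3 and 6 with miR-183-5p and 9, 2 and 12 with miR-222-3p. The libraries numbered 2 were the lowest of their group in all 4 groups, with 9 counts in sum against 31 in number 1 and 32 in number 3. For Clec4n the sum was also lowest in number 2, at 9 counts against 32 in number 1 and 25 in number 3, with single libraries between 1 and 10 counts. In ctrl-EVs, however, number 3 was the lowest Clec4n library, with 3 counts against 5 in number 2. When the count filter was dropped and title number was tested with DESeq2 in a model of group and number, number 2 differed from numbers 1 and 3 by a log2 fold change of -1.72 ± 0.81 (SE) for Clec4n (adjusted p = 0.0636) and of -1.47 ± 0.78 for Msr1 (adjusted p = 0.106), neither past the threshold of 0.05. Without the count filter, Msr1 was also lower with miR-142-5p than with miR-222-3p at the unadjusted level in DESeq2 (log2 difference -2.18 ± 0.93, unadjusted p = 0.0187, and -2.28 ± 0.98, unadjusted p = 0.0204, with the title number as a block), with libraries that overlapped and an adjusted p of 1 in both. This difference also rested on the transcript length factor of the fit. After scaling by library size and that factor, the 7 and 9 counts of library 1 in these 2 groups became 4.74 and 22.8. The 9 counts of miR-183-5p library 1 became 5.24. No fit of Msr1 without the factor was run.

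Next, the EV groups were compared. Normalized counts below are estimated counts divided by the library's size factor and by a transcript length factor, and n is 3 libraries per group. For Scarb1 they were 1160.5, 2315 and 1060.3 in ctrl-EVs 1, 2 and 3, and 1784, 2661 and 929.98 with miR-142-5p. They were 1369, 3092 and 984 with miR-183-5p, and 1749, 2583 and 845 with miR-222-3p. The groups overlapped completely: in each of them number 2 was the highest and number 3 the lowest library.

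Mean Scarb1 was 1512 ± 697 (SD) in ctrl-EVs, 1725 ± 869 with miR-222-3p, 1792 ± 866 with miR-142-5p and 1815 ± 1122 with miR-183-5p, an order in which neighbours differed by less than their SD. The log2 fold change fitted against ctrl-EVs was 0.24 ± 0.54 (SE) with miR-142-5p, 0.26 ± 0.54 with miR-183-5p and 0.19 ± 0.54 with miR-222-3p. With the title number as a block, which sets every miR-EV library beside its ctrl-EV partner, these became 0.20 ± 0.16, 0.18 ± 0.16 and 0.14 ± 0.16. The 95% intervals with the block were -0.10 to 0.51, -0.13 to 0.48 and -0.17 to 0.44, so a log2 fold change of 1 lay outside each of them in either direction. With miR-183-5p, the mimic that has a site in Scarb1, the fitted value was above 0 in both fits and its intervals included 0; without miR-183-5p library 2 and with no block it was -0.36.

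Stab1 encodes stabilin-1, a large receptor for acetylated lipoprotein and for the secreted protein SPARC. Its normalized counts were 119, 279.9 and 102 in ctrl-EVs 1, 2 and 3, 114, 358 and 102 with miR-142-5p, 129, 410.1 and 138 with miR-183-5p and 162, 387 and 81.3 with miR-222-3p. Again number 2 was the highest library in every group, and the groups overlapped. Fitted log2 fold changes against ctrl-EVs were 0.19 ± 0.69 with miR-142-5p, 0.43 ± 0.69 with miR-183-5p and 0.33 ± 0.69 with miR-222-3p. With the block they were 0.11 ± 0.21, 0.39 ± 0.21 and 0.24 ± 0.21, and the value for miR-183-5p had the lowest p of the 4 receptors in this fit of DESeq2 (unadjusted p = 0.0686, adjusted p = 0.457). Stab1 was higher than in the ctrl-EVs of its number in 7 of 9 miR-EV libraries, and miR-183-5p libraries 1, 2 and 3 stood at 1.09, 1.465 and 1.36 times that level.

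Cd36 encodes a fatty acid transporter that also binds oxidized lipoprotein. It had 2, 13 and 13 estimated counts in ctrl-EVs 1, 2 and 3, 12, 11 and 12 with miR-142-5p, 22, 9 and 8 with miR-183-5p and 24, 13 and 15 with miR-222-3p. The single low library was ctrl-EVs 1, and apart from it the groups overlapped. The log2 fold change was 1.002 ± 0.70 with miR-142-5p, 0.39 ± 0.70 with miR-183-5p and 0.99 ± 0.69 with miR-222-3p. Without ctrl-EVs 1 these values were 0.50, -0.09 and 0.51, so the size of the first and the last, and the sign of the middle one, rested on a library with 2 counts. Without the transcript length factor the 3 values were 0.32, 0.30 and 0.82, so the first also rested on that factor. The ratios between miR-EV and ctrl-EV libraries that carry one number showed the same split, with 8.44 to 10.4 in number 1, 0.504 to 1.97 in number 2 and 1.07 to 1.15 in number 3.

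For Clec7a, which signals through the kinase Syk, normalized counts were 27.8, 18.7 and 17.1 in ctrl-EVs 1, 2 and 3, 25.4, 14.0 and 25.4 with miR-142-5p, 40.03, 26.5 and 25.7 with miR-183-5p and 32.5, 46.3 and 14.3 with miR-222-3p. The miR-183-5p libraries were each above their ctrl-EV partner, at 1.44, 1.42 and 1.501 times its level, whereas the miR-222-3p libraries ranged from 0.834 to 2.48 times. The log2 fold change was 0.04 ± 0.51 with miR-142-5p, 0.55 ± 0.51 with miR-183-5p and 0.52 ± 0.51 with miR-222-3p. All 3 intervals included 0.

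**Figure D2:**
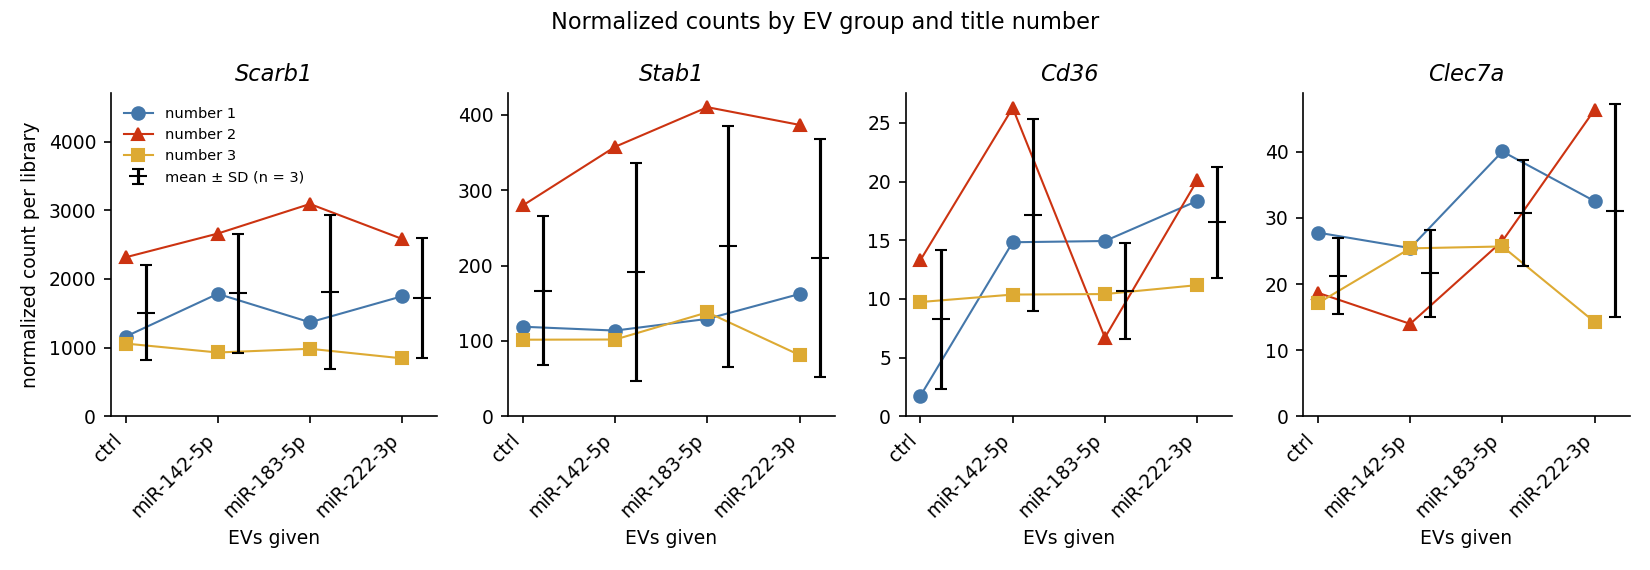
Normalized counts of the 4 tested receptors for each EV group (x axis), with 1 line per title number joining the libraries of that number and black bars for the mean ± SD of the 3 libraries of a group; each y axis starts at 0. For Scarb1 and Stab1 the line of number 2 runs above both other lines in all 4 groups, whereas for Cd36 (6.72 to 26.3 in number 2) and Clec7a (14.0 to 46.3) the lines cross.

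In these tests 0 of the 4 receptors were called at an adjusted p under 0.05, in any EV comparison. Against ctrl-EVs, DESeq2 called 0.00719% of all 13906 genes with miR-142-5p and 0.0% with either other mimic or with the 3 mimics pooled, and 0.00719% in the test of any difference among the 4 groups. With the block these shares were 0.0575%, 0.41%, 0.0647%, 0.626% and 0.0863%, and 0 receptors were called as well. In that fit, however, DESeq2's filter on mean count gave no adjusted p to 7 of the 16 receptor tests against ctrl-EVs, whose unadjusted p was at least 0.138. Adjusted over all genes instead, a setting added after the data were seen, the lowest adjusted p of the 16 was 0.536. With edgeR, 0.0% of genes were called in each EV comparison, with and without the block. The tests comprised 7 contrasts, 1 of them with the 3 mimics pooled, and the test of any difference among the 4 groups. Over these, 0 tests of these 4 receptors reached an unadjusted p under 0.05 in DESeq2 or edgeR, with or without the block. With the block but without the transcript length factor, 1 did in DESeq2, Stab1 with miR-222-3p (log2 fold change 0.49 ± 0.22, unadjusted p = 0.0271, adjusted p = 0.845). The 3 comparisons with ctrl-EVs share the same control libraries, so that their values are not independent.

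The 9 miR-EV libraries pooled gave log2 fold changes against ctrl-EVs of 0.23 ± 0.44 for Scarb1, 0.32 ± 0.57 for Stab1, 0.79 ± 0.58 for Cd36 and 0.37 ± 0.42 for Clec7a. These 4 values were positive, beside a median of 0.01 over all tested genes, and each was smaller than 2 SE. Cd36 exceeded its ctrl-EV partner in 8 of 9 miR-EV libraries, and Scarb1 and Clec7a each did in 6.

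The mimics were also compared with each other, which takes the shared control out. For miR-142-5p minus miR-183-5p the log2 difference was -0.02 ± 0.54 for Scarb1, -0.24 ± 0.69 for Stab1, 0.62 ± 0.69 for Cd36 and -0.51 ± 0.50 for Clec7a. For miR-183-5p minus miR-222-3p it was 0.07 ± 0.54, 0.11 ± 0.69, -0.61 ± 0.68 and 0.03 ± 0.50 in the same order, and for miR-142-5p minus miR-222-3p it was 0.05 ± 0.54, -0.14 ± 0.69, 0.01 ± 0.68 and -0.47 ± 0.50. Over the 3 pairs of mimics, 0 of the 4 tested receptors were called by DESeq2, with an unadjusted p of at least 0.309 without the block and 0.186 with it. Without the transcript length factor the 3 values of Cd36 became 0.02, -0.52 and -0.50 in the order given. Of all genes 0.0144% were called between miR-142-5p and miR-183-5p, 0.00719% between miR-142-5p and miR-222-3p and 0.0% for the last pair, and 0.0144%, 0.0216% and 0.0% with the block. For Scarb1 with the block, the intervals of these 3 differences reached from -0.28 to 0.33 (miR-142-5p minus miR-183-5p), from -0.24 to 0.37 (miR-142-5p minus miR-222-3p) and from -0.26 to 0.34 (miR-183-5p minus miR-222-3p). Without the block, the intervals of all 4 receptors in all 3 pairs reached beyond 1 log2 unit on at least 1 side, so a difference of that size was not excluded there.

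**Figure D3:**
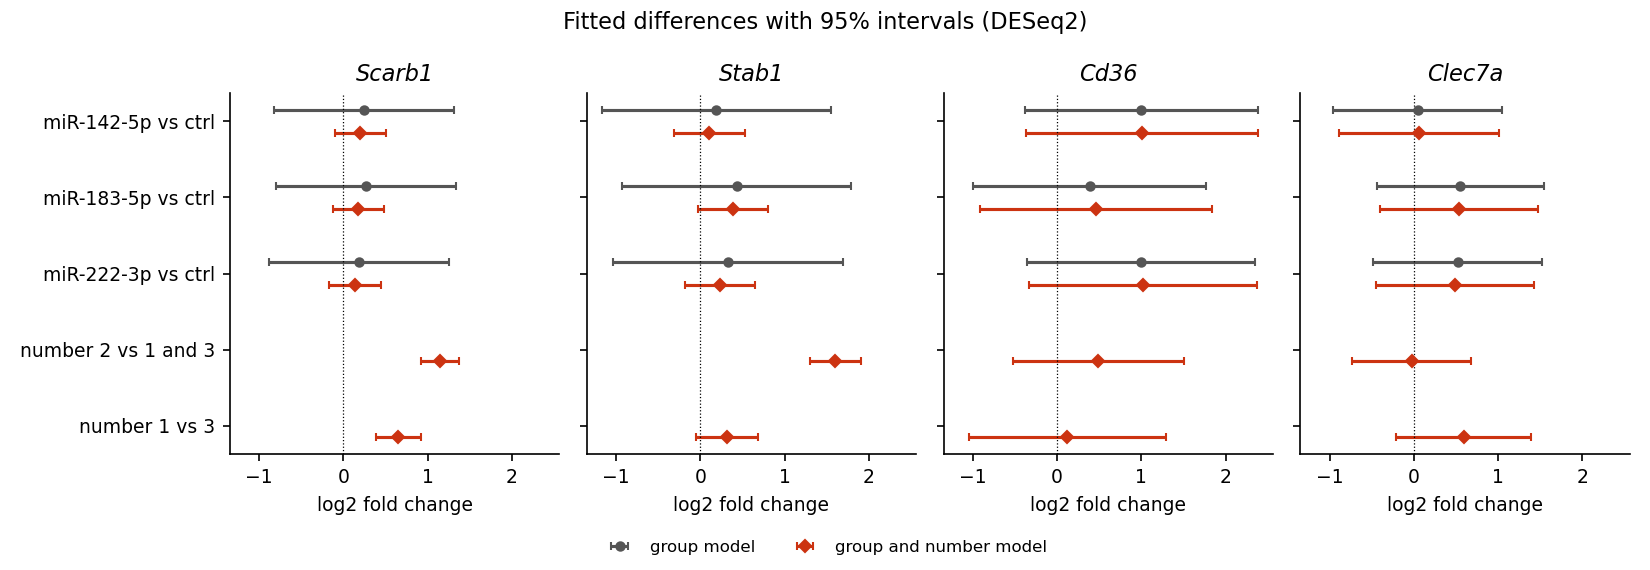
DESeq2 log2 fold changes (x axis) of the 4 tested receptors with 95% intervals, for each miR-EV group against ctrl-EVs and between title numbers; grey circles come from the model of group alone and red diamonds from the model of group and number. All intervals of the EV comparisons include 0, and the intervals that do not are number 2 against numbers 1 and 3 for Scarb1 and Stab1 and number 1 against number 3 for Scarb1.

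The larger contrast for Scarb1 and Stab1 was the one between title numbers. Scarb1 averaged 2663 ± 322 normalized counts (SD, n = 4) in number 2, 1516 ± 302 in number 1 and 954.7 ± 90.8 in number 3, and Stab1 358.6 ± 56.6, 131 ± 21.8 and 106 ± 23.6. For both genes each of the 4 libraries of number 2 lay above all 8 others. The ratio of number 2 to the mean of numbers 1 and 3 within an EV group was 1.96 to 2.63 for Scarb1 and 2.54 to 3.32 for Stab1.

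In the model of group and number, number 2 exceeded numbers 1 and 3 by a log2 fold change of 1.14 ± 0.12 for Scarb1 (adjusted p = 9.67e-22, DESeq2) and 1.60 ± 0.15 for Stab1 (adjusted p = 1.74e-24). This call, for 2 of 4 receptors, has to be read against the whole transcriptome, in which 64.1% of genes were called in this contrast, 32.0% higher and 32.1% lower. Non-overlap in this direction was found for 20.2% of all genes. Cd36 (0.49 ± 0.52, adjusted p = 0.411) and Clec7a (-0.02 ± 0.36, adjusted p = 0.955) did not pass the DESeq2 test.

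Number 1 exceeded number 3 for Scarb1, at 1160.5 to 1784 against 845 to 1060.3 normalized counts, with no overlap (log2 fold change 0.65 ± 0.13, adjusted p = 2.37e-05, DESeq2). Here 1 of 4 receptors was called against 23.4% of all genes (12.9% higher), and 13.2% of genes had no overlap in this direction. Stab1 (0.32 ± 0.19, adjusted p = 0.228), Clec7a (0.59 ± 0.41, adjusted p = 0.319) and Cd36 (0.12 ± 0.59, adjusted p = 0.915) were not called by DESeq2. Within EV groups, the ratio of number 1 to number 3 for Scarb1 was 1.09 in ctrl-EVs, 1.39 with miR-183-5p, 1.92 with miR-142-5p and 2.07 with miR-222-3p.

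Other values moved with the numbers as well. The libraries of number 2 held the fewest estimated counts (16294611 to 18927524, against 18990222 to 22974853 in the others) and the largest mitochondrial share (4.88% to 5.41%, against 3.48% to 4.62%). Summed TPM of 10 macrophage markers (Cd68, Cd14 and Spi1 also stand in lists below), all of which exceeded 1 TPM in every library, was 1576 to 1725 in number 2, 1774 to 1925 in number 1 and 2099.8 to 2191 in number 3. Single markers went different ways. In number 2, 2 of the 10 were called higher and 4 lower, beside 32.0% and 32.1% of all genes. Cd68 averaged 347, 386 and 332 TPM in numbers 1, 2 and 3, and Csf1r 84.0, 23.8 and 53.6 TPM. Of 10 endothelial markers, which the EVs' source cell could bring, 2 exceeded 1 TPM in every library (Egfl7 and Pecam1) and Cldn5 was at 0 in all. Their sum was lower in number 2 (15.0 to 17.7 TPM) than in numbers 1 and 3 (25.6 to 34.1 TPM). Most of it was Egfl7, at a mean of 21.3, 11.4 and 22.6 TPM in numbers 1, 2 and 3, whereas Pecam1 was at 3.42, 3.40 and 2.96 TPM. Markers of dendritic cells, neutrophils, lymphocytes and fibroblasts summed to at most 6.77, 2.18, 1.75 and 1.01 TPM in any library. The part of depth, mitochondrial share and these markers in the receptor differences was not tested, and numbers cannot be told apart from whatever was done separately for each of them. In bulk RNA, fewer cells of a type and less RNA per cell cannot be told apart either.

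Scarb1 carried a further pattern that ran across both factors. In number 1 the miR-EV libraries stood at 1.18 to 1.54 times their ctrl-EV library, in number 2 at 1.12 to 1.34 times, and in number 3 all 3 were below it, at 0.797 to 0.928 times. Among all tested genes, 7.79% had every miR-EV library on one side of its control in numbers 1 and 2 and on the other in number 3. Each number has 1 ctrl-EV library, so all 3 ratios of a number shift with it.

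**Figure D4:**
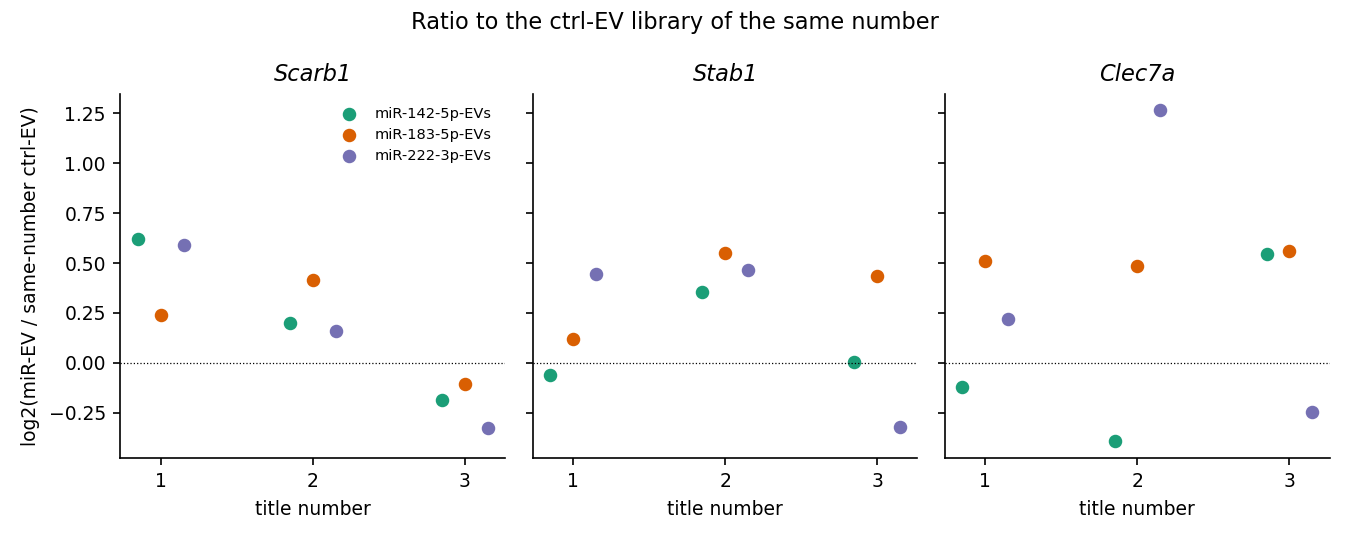
Log2 ratio between each miR-EV library and its ctrl-EV partner, by title number (x axis), for Scarb1, Stab1 and Clec7a, coloured by EV group, with a dotted line at no difference. Scarb1 lies above the line in numbers 1 and 2 and below it in number 3, whereas for Stab1 and Clec7a most numbers hold points on both sides of the line.

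The transcripts assigned to Scarb1 (ENSMUSG00000037936, chromosome 5, 125277087 to 125341094, minus strand, GRCm38) differed between the numbers too. Salmon divided its reads mainly between 2 coding transcripts. Scarb1-201 has 13 exons and 1527 coding bases, and Scarb1-202 has 12 exons and 1518 coding bases and lacks an internal exon of 129 bases (125281105 to 125281233). These 2 share 10 exons exactly, and their outer exons differ only in where they begin or end. Forms of this gene that differ near the 3′ end of the coding part are known as SR-BI and SR-BII, which differ in the cytoplasmic tail.

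Scarb1-201 held 81.9% to 83.7% of Scarb1 TPM in number 1 and 73.8% to 90.4% in number 3, but 50.7% to 59.8% in number 2. Scarb1-202 held 9.93% to 13.8% in number 1, 4.19% to 13.6% in number 3 and 25.1% to 31.0% in number 2, without overlap between number 2 and the others. How many transcripts of all genes separated in this way is not given here. At the gene level, 20.2% of all genes were higher in number 2 without overlap. In absolute terms Scarb1-201 was at 38.8 to 41.4 TPM in number 2, within the range of 29.7 to 46.0 TPM of number 1, whereas Scarb1-202 was at 17.4 to 25.0 TPM in number 2 against 4.62 to 6.57 in number 1 and 1.20 to 4.51 in number 3. The remaining, mostly noncoding, transcripts were at 9.37 to 14.8 TPM in number 2 against 1.15 to 4.43 in number 1. Within EV groups, Scarb1-202 and the remaining transcripts were higher in number 2 than in number 1 in all 4 groups, while Scarb1-201 differed in direction. It was higher in number 2 in ctrl-EVs (38.8 against 29.7 TPM) and with miR-183-5p (40.9 against 34.8 TPM), and lower with miR-142-5p (40.3 against 46.0 TPM) and with miR-222-3p (41.4 against 43.5 TPM). Number 1 exceeded number 3 in Scarb1-201 (24.5 to 26.8 TPM in number 3). These shares are Salmon's estimates for overlapping transcripts and were not tested. The miR-183-5p site shown above is not equal in them: in Scarb1-201 its bases are 3′ UTR, whereas in Scarb1-202, whose coding part runs on into the last exon down to base 125277749, the same bases are annotated as coding, and the 657-base 3′ UTR of Scarb1-202 held 0 such sites.

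**Figure D5:**
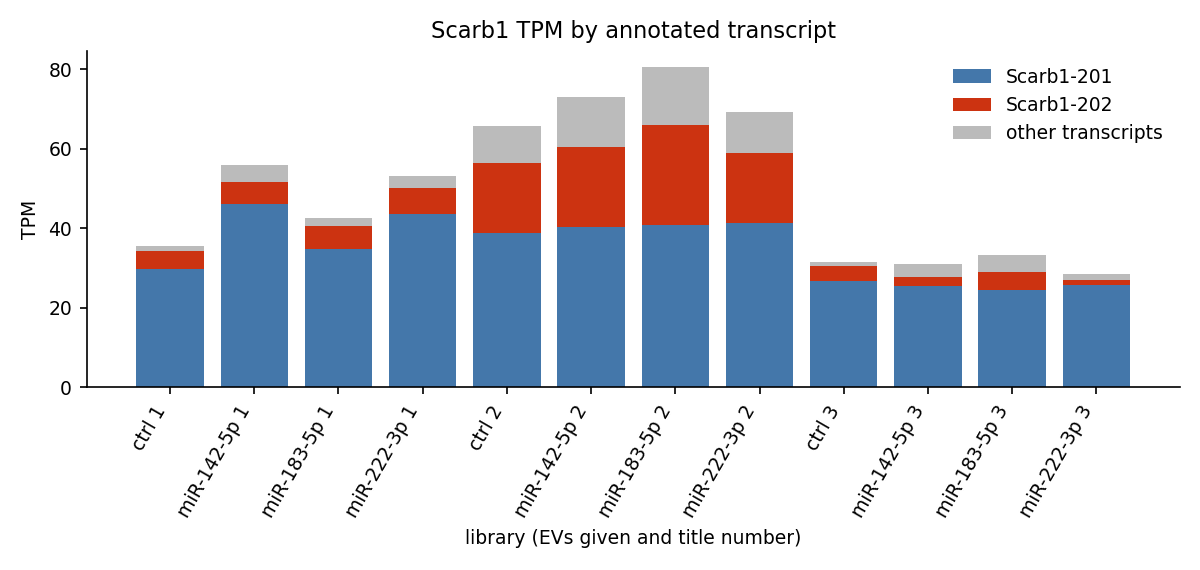
Stacked bars of Scarb1 TPM in each of the 12 libraries, ordered by title number, divided into Scarb1-201 (blue), Scarb1-202 (red) and all other annotated transcripts (grey). The blue part is 38.8 to 41.4 TPM in the libraries of number 2, within the 29.7 to 46.0 TPM of number 1, while the red part is 17.4 to 25.0 TPM in number 2 and no more than 6.57 TPM elsewhere.

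Stab1 (ENSMUSG00000042286, chromosome 14, 31139013 to 31168641, minus strand) overlaps Nt5dc2 on the opposite strand, a gene at a mean of 27.7 TPM. Since it is not stated whether the authors' counting used the strand, reads in the overlap cannot be told apart. The full-length coding transcript Stab1-201 (7999 bases) held 70.2% of Stab1 counts but only 10.8% to 30.3% of its TPM, because short fragments annotated with retained introns gain weight per length. Coding transcripts held 57.7% to 78.7% of the counts and 15.4% to 50.5% of the TPM. On coding transcripts alone, mean Stab1 was 0.921 TPM in number 1, 2.50 in number 2 and 0.845 in number 3, the same order of numbers as for all transcripts. Every library of number 2 (2.15 to 2.87 TPM of coding Stab1) was still above all others (0.471 to 1.24 TPM).

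Reads of Clec7a (ENSMUSG00000079293, chromosome 6, 129461591 to 129472779, minus strand) fell mainly on Clec7a-204, which held 83.1% of its counts and which the annotation classes as a polymorphic pseudogene, a coding gene that some mouse strains carry in a broken form. The protein-coding class alone held from 0% to 99.9% of Clec7a TPM, depending on the library, and at 13.6 to 45.5 counts per library this split is not resolved. Cd36 (ENSMUSG00000002944, chromosome 5, 17781690 to 17888801, minus strand) had its few reads spread over 6 coding transcripts.

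Genes with profiles most like that of a receptor were sought by Pearson's r of log2(normalized count + 1) over the 12 libraries, as a description. For Scarb1 they included Pfkfb3 (r = 0.986) and Ccng2 (0.986), and 685 genes exceeded 0.9. For Stab1 they were Ube4b (0.977), Psrc1 (0.977) and Phtf2 (0.976), with 926 genes above 0.9. These libraries share the title numbers, and likeness to Scarb1 and Stab1 largely repeats the order of the numbers: after the mean of each number was taken out, r fell to 0.8289 for Pfkfb3 and 0.776 for Ube4b. Scarb1 and Stab1 had r = 0.922 with each other, and 0.506 within numbers. Cd36 was most like Man2b1 (0.908), Gm45713 (0.857) and Arhgef15 (0.852), and Clec7a most like Aire (0.809), Rwdd4a (0.798) and Xrra1 (0.795), at counts for both receptors at which sampling noise is large.

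Other receptors and partners of the same pathways were taken from lists. Of 18 further scavenger receptors 11 were tested and 6 exceeded 1 TPM in every library, while the other 7 had too few reads to test. Cd68, the macrophage lysosomal scavenger receptor, was at 321 to 416 TPM. Against the EV groups 0 of the 11 were called, with or without the block, and between number 2 and the others 4 were higher and 3 lower, a share like the 64.1% of all genes called in that contrast. The scavenger receptor Colec12 (log2 fold change -1.67 ± 0.10) and the endotoxin receptor Cd14 (-1.48 ± 0.09) were among the lower ones.

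Of 19 further C-type lectin receptors 18 were matched and 8 tested, of which 0 were called between EV groups and 5 were lower and 0 higher in number 2 (of all genes 64.1% were called and 32.1% were lower). Clec5a (-2.85 ± 0.12), Clec4e, known as Mincle (-1.57 ± 0.18), and Clec4d (-1.28 ± 0.17), which neighbours Clec4n in function as a receptor for fungal and mycobacterial glycolipids, led them. The summed TPM of this list was 22.4 to 29.6 in number 2 and 90.2 to 115 in numbers 1 and 3. The median log2 fold change of the 8 was -1.33, beside 0.01 over all genes.

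All 14 genes of lectin receptor signalling were tested and exceeded 1 TPM in every library. With the block, Malt1, the protease of the CARD9 and BCL10 complex downstream of Dectin-1, was called higher with miR-183-5p (log2 fold change 0.48 ± 0.12, adjusted p = 0.0308, DESeq2) and in all miR-EVs (0.40 ± 0.10, adjusted p = 0.0194); it was 1 of the 14, beside 0.41% and 0.626% of all genes. Without the block it was not called (0.48 ± 0.31 with miR-183-5p, unadjusted p = 0.121), nor by edgeR with the block (adjusted p = 0.338 and 0.295). In number 2, 2 of the 14 were higher and 8 lower, beside 32.0% and 32.1% of all genes, led by Vav1 (-1.33 ± 0.06), Prkcd (1.66 ± 0.08) and Syk (-0.80 ± 0.07).

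Of 20 genes for uptake of apoptotic cells, the process in which Mertk acts, 12 were tested and 0 called between EV groups. Its relatives were better expressed than Mertk, with Axl at 7.51 to 23.5 TPM and Tyro3 at 0.435 to 2.76 TPM. In number 2, 3 of the 12 tested genes were higher and 4 lower, beside 32.0% and 32.1% of all genes. Among them, the bridging protein Mfge8 (1.64 ± 0.11) and the eat-me signal Calr (1.91 ± 0.09) were higher, and the engulfment adaptor Elmo1 (-1.11 ± 0.08) was lower. Of 20 regulators and partners of CD36, SR-BI and MSR1, 17 were tested and 0 were called between EV groups. In number 2, 3 of the 17 were higher and 9 lower, beside 32.0% and 32.1% of all genes. Those with the lowest adjusted p were the cholesterol exporters Abcg1 (-0.93 ± 0.07) and Abca1 (-1.18 ± 0.11) and the cholesteryl ester hydrolase Nceh1 (-1.26 ± 0.10), all lower. Pparg, a nuclear receptor that drives Cd36 in macrophages, was at 0 to 0.359 TPM.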

How the data were processed

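RNA of 12 libraries was sequenced by the authors with a stranded polyA kit. Transcript abundance was estimated with Salmon, per the labels and the study's methods, and the files as deposited hold for each transcript an estimated count and a TPM value, both made by the authors from the reads of 1 library. The build named in the labels' processing notes is human, whereas the transcript identifiers are of mouse. Of 118783 transcripts listed, 116622 (98.2%) matched the GRCm38 annotation used here, and the unmatched ones held 0.605% to 0.707% of the counts.

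Here, estimated counts were summed to 35865 genes, rounded, and tested with DESeq2 1.42.0 (R 4.3.3) with TPM-weighted transcript length as an offset, on the 13906 genes for which 3 or more libraries reached 10 counts. P-values were two-sided and adjusted by Benjamini-Hochberg, with calls at 0.05. DESeq2's independent filtering, left on, gave an adjusted p to only 10401 of these genes for miR-183-5p, 6357 for miR-222-3p and 10670 for the mimics pooled in the fits with a block, so an adjustment over all genes was added after the data were seen. EdgeR 4.0.16 (quasi-likelihood) was an alternative. Intervals are 95% Wald intervals of the fit. Library totals were 16294611 to 22974853 estimated counts; floors cover counting error only. The fits were run on simulated counts with known changes before use. Those counts had the same spread in all genes and few genes changed between numbers, whereas 64.1% of genes were called for number 2 here. The simulation therefore does not measure how the fits perform on these data.

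Groups come from the sample titles. The study's methods state in general terms that experiments were repeated, but the labels do not say whether the libraries of a group came from separate cultures, so p-values measure the spread between these libraries, which may be technical. Libraries of 1 title number deviated together from their group means (correlation 0.409 to 0.797 over 18 pairs, mean 0.608, against a mean of -0.286 over 36 pairs of other numbers), so the number was taken to pair libraries and a block on it was fitted as an alternative. Leaving out libraries, TMM scaling, no count filter, no length offset and fits of only the groups compared were the other alternatives.

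The receptors, the related lists and the markers were chosen with earlier results of these data known. All 10 receptors are named, and from each related list at most 3 called genes with the lowest adjusted p, plus the 3 genes most correlated with each tested receptor. Cd68, Axl, Tyro3 and Pparg were named after their values were seen. Some genes that this rule names are not reported here.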

Additional observations from a re-analysis of the deposited data

Results flagged for a closer look

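The log2 ratio of Scarb1 in miR-EV libraries over the ctrl-EV library of their title number was on average 0.692 higher in number 1 than in number 3, and 0.467 higher in number 2 than in number 3. It drew attention because all 3 miR-EV libraries lay above their control in numbers 1 and 2 and all 3 below it in number 3. The difference was not tested. Each number has 1 ctrl-EV library, and 7.79% of all tested genes divided in this way. A check of 16 groups of 4 to 10 libraries flagged 0 libraries as set apart in a tested receptor. It did not flag Cd36 in ctrl-EVs 1, at 1.76 normalized counts against 14.8 to 18.3 in the miR-EV libraries of number 1. The check therefore does not show that no library stood apart.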

How the results depend on the processing

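The number of receptors called stayed the same in all 220 recomputed counts, and 488 recomputed log2 fold changes of single receptors kept direction and side of the threshold, while another 28 changed sign, none of them called. With the replicate block 0 receptors were called against ctrl-EVs, although 7 of the 16 tests had no adjusted p; adjusted over all genes, added after the data were seen, 0 were called too. Calls of DESeq2 over all genes rose with the block from 1 to 8 (miR-142-5p against ctrl-EVs), from 0 to 57 (miR-183-5p), from 0 to 9 (miR-222-3p), from 0 to 87 (the mimics pooled), from 1 to 3 (miR-142-5p against miR-222-3p) and from 1 to 12 (any difference), whereas edgeR called 0 in each of these with the block. Adjusted over all genes, the block gave 8, 40, 5 and 75 calls against ctrl-EVs in the order above. With the replicate block and 1 title number left out, log2 fold changes against ctrl-EVs became -0.034 for Stab1 (miR-142-5p, without number 2), -0.25 for Clec7a (miR-142-5p, without number 3), -0.40 for Cd36 (miR-183-5p, without number 1) and -0.089 for Scarb1 (miR-222-3p, without number 1). Clec7a in number 2 became 0.065 without the length offset and 0.012 without the group term. Libraries were also left out 1 at a time in the fit without the block, which leaves the title numbers unequal between groups. Values against ctrl-EVs then ranged for Stab1 from -0.63 to 0.79 (miR-142-5p), -0.32 to 1.04 (miR-183-5p) and -0.46 to 0.93 (miR-222-3p). The -0.63 came without miR-142-5p library 2 and the 0.79 without ctrl-EVs 2. For Scarb1 they ranged from -0.15 to 0.69, -0.36 to 0.71 and -0.22 to 0.64 in the same order of mimics. For Clec7a they ranged from -0.10 to 0.28 (miR-142-5p) and for Cd36 from -0.091 to 0.87 (miR-183-5p). In the model of group and number with 1 library left out, Clec7a in number 2 ranged from -0.44 to 0.22. Cd36 in number 1 against number 3 ranged there from -0.28 to 0.60. The cause was not tested. In number 2 against the others, Stab1 ranged from 1.52 to 1.69 and Scarb1 from 1.05 to 1.22 when 1 library was left out, and both stayed called in DESeq2. Depth limits Cd36, Clec7a and the 6 receptors under the count filter.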
